A study of Mus musculus with 19 samples.

Results

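The effect of a high-fat diet on old mouse muscle was examined in 10 of the series' 19 RNA sequencing libraries. These are 5 libraries from aged mice fed a diet in which fat gave 60% of the calories (aged obese, libraries 35 to 39) and 5 from aged mice for which it gave 12% (aged lean, libraries 30 to 34). Per the sample labels, all mice were male, of a strain spelled C657Bl/6J, and the aged mice were 20 to 21 months old. The remaining 4 young lean and 5 young obese libraries came from 6-month-old males of the same strain on the same 2 diets, and serve to ask whether the diet effect differed with age. The sample labels name gastrocnemius, the mixed-fibre calf muscle, and single-end reads. The series' design text differs in giving tibialis anterior, 21 to 24 months and paired-end sequencing, and the sample labels were followed. Whether the libraries stem from separate animals is not in the labels, so the p-values reflect only how far these samples spread.

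Skeletal muscle is built of fibres that differ in speed. Slow fibres use the myosin heavy chain Myh7 with their own troponins and calcium pump and rely on oxidation, while the faster fibres use Myh2, Myh1 or Myh4. Between the fibres lies a collagen-rich matrix, made largely by fibro-adipogenic progenitors, with resident macrophages, vessels and nerve. A diet rich in fat is known to raise fatty acid oxidation genes in muscle through PPAR transcription factors.

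The table gives 1 normalized signal value per gene and library. Of 14707 genes, 13367 had a mean of at least 10 over the 19 libraries and were tested together. Summed signal was 15.4 to 16.9 M per aged library, and read depth could not be recovered from these values. The muscle markers Acta1 (544307 to 751284), Ckm (305090 to 386923) and Mb (26417 to 69456) were high in all 10 libraries. Library 30, an aged lean one, stood apart: it had the largest loading (0.70) on the first component of the 10 libraries, which held 30.5% of the variance. It also had the highest summed macrophage markers.

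In aged muscle 143 of 13367 genes (1.07%) changed with diet at an adjusted p under 0.05, 63 upward (0.471%) and 80 downward (0.598%), by limma with Benjamini-Hochberg adjustment over all genes. Unadjusted, 2059 of the 13367 genes had a p under 0.05. The list counts below are to be read against these shares over all genes. Of the 143 genes, 36 differed by more than 2-fold, 20 upward and 16 downward. The groups did not overlap for 135 of them, against 492 of all tested genes (3.68%). The called genes included 5 slow fibre contractile genes and 2 clock genes that rose, and matrix genes and 2 glucocorticoid-induced genes that fell. With any 1 library left out the count lay between 51 and 227, and 40 genes were called in all 10 of these runs. The count fell to 100 without library 30, 74 without library 34, 83 without library 35, 51 without library 36 and 59 without library 37, and rose to 227 without library 32. With each library scaled to the same total, 159 genes passed, with 44 upward and 115 downward. A fit that pools the spread over all 19 libraries called 39 genes, 36 of them among the 143, and its adjusted p is given below, as the pooled-spread p, for named genes that lost their call there.

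Of 18 tested slow fibre contractile genes 5 rose, 13 did not pass and none fell, where 0.471% of all genes rose. All 18 had a higher mean in aged obese muscle on the log2 scale, with a median log2 change of 0.91 against 0.003 for all genes. The 5 were Myh7, Tnni1, Tnnc1, Tnnt1 and Atp2a2. The summed signal of the list ran from 28049 to 52050 in the aged lean libraries and from 54783 to 115984 in the aged obese ones, without overlap. In whole muscle, a change in the number of fibres of a type and a change in RNA per fibre cannot be told apart, and the same holds for every other cell type below.

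Myh7, the slow myosin heavy chain, stood at 2867, 6260, 2463, 5075 and 3053 in aged lean libraries 30 to 34 and at 11238, 17639, 11615, 7110 and 21402 in aged obese libraries 35 to 39. Every aged obese library was above every aged lean one, with library 39 highest and library 38 lowest of its group. The difference was 3.48-fold (log2 1.80, SE 0.30, adjusted p = 0.0162, limma). Tnni1, the slow inhibitory troponin, had 324, 866, 303, 541 and 407 in lean and 1598, 1850, 1532, 1042 and 3504 in obese libraries. It rose 3.88-fold (log2 1.96, SE 0.31, adjusted p = 0.0124). The same 2 libraries, 38 and 39, were the lowest and the highest of the aged obese group.

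Tnnc1, the calcium-binding troponin of slow and cardiac muscle, had 382, 860, 364, 620 and 477 in lean and 1537, 1887, 1402, 852 and 3046 in obese libraries. Its groups met at lean library 31 and obese library 38, and it rose 3.12-fold (log2 1.64, SE 0.30, adjusted p = 0.0211). Tnnt1, the slow tropomyosin-binding troponin, rose from 1073 ± 423 to 2999 ± 1296 (SD, n = 5 each, log2 1.47, adjusted p = 0.0299, limma), again with an overlap of libraries 31 and 38. Atp2a2, the calcium pump of slow fibres, rose from 4843 ± 1198 to 10191 ± 3561 (log2 1.04, adjusted p = 0.0412, limma) without overlap. The next slow or slow-associated genes did not pass and were picked after their values were seen. The regulatory light chain Myl2 differed by 1.30 (adjusted p = 0.0813), the essential light chain Myl3 by 0.67 (adjusted p = 0.274) and sarcolipin, Sln, by 0.78 (adjusted p = 0.632).

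Tnni1 was called with any 1 library left out. Myh7 lost its call without library 36 (adjusted p = 0.0513). Tnnc1 lost it without library 34, 35, 36 or 37 (up to 0.0648), Tnnt1 without 30, 34, 35, 36 or 37 (up to 0.0872), and Atp2a2 without 30, 32, 34, 35, 36, 37 or 39 (up to 0.113). No member of the list passed with robust variance moderation, without a variance trend or beside a clock score described below. The pooled-spread p was 0.0823 for Atp2a2, while the other 4 kept their call.

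**Figure D1:**
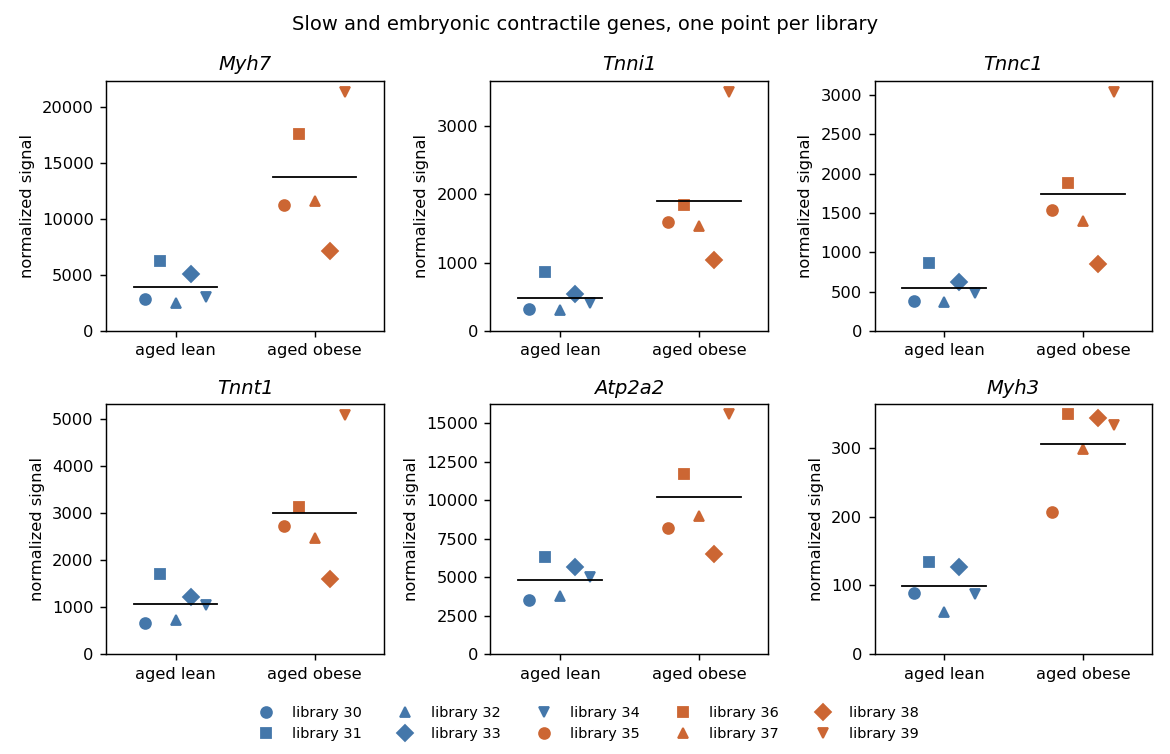
Normalized signal (linear axis from 0) of 5 slow contractile genes and the embryonic myosin Myh3 in each aged library, with blue for aged lean and orange for aged obese. Each point is 1 library and each black line a group mean. Library 39 is highest and library 38 lowest among obese libraries for the 5 slow genes, and Myh3 rises in all 5 obese libraries, from a lean range of 60.6 to 134 to an obese range of 207 to 349.

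Because these genes rose together, the 250 bases before their start sites were read from RefSeq (build GRCm38.p6) and searched on both strands for MCAT, the CATTCC core bound by TEAD factors, which regulate muscle genes. The windows of the 3 genes with the largest rises are shown on the gene's strand, 5′ to 3′, with the core in capitals, which reads GGAATG where it lies on the opposite strand. They are chr14:54994627-54994876 (minus strand) for Myh7, chr14:31208062-31208311 (plus strand) for Tnnc1 and chr1:135799171-135799420 (plus strand) for Tnni1.
Myh7: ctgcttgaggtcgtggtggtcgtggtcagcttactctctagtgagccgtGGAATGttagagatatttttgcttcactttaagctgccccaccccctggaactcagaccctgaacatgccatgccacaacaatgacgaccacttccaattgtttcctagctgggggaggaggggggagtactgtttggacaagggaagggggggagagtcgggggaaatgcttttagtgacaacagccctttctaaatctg
Tnnc1: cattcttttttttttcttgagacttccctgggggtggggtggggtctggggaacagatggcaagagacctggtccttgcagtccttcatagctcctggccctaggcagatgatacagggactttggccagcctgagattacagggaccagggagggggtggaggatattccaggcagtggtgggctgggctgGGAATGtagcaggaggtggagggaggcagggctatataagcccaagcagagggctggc
Tnni1: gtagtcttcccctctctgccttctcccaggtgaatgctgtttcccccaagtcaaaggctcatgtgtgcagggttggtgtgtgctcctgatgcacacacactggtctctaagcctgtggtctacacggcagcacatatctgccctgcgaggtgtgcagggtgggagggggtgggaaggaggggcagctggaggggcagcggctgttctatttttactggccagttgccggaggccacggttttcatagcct
The Myh7 and Tnnc1 windows hold 1 core each and the Tnni1 window holds none. Over the list, 3 of 16 genes with a window held the core, and 12.6% of 32817 windows in the table did. A gene can have more than 1 window (Myh7 and Tnni1 have 2 each), so counts by gene and by window are not alike. A match describes these letters and is not evidence of binding. Tead1, a TEAD factor picked after its values were seen, was among the called genes. It rose from 4404 ± 363 to 5910 ± 599 (SD, n = 5 each, log2 0.42, adjusted p = 0.0211, limma), and lost its call without library 37 (adjusted p = 0.0566). Its pooled-spread p was 0.0744. Whether TEAD factors had a part in the rise of the slow fibre genes was not tested.

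The share of each chain in the summed signal of the 4 adult myosins Myh7, Myh2, Myh1 and Myh4 does not depend on scaling between libraries. The Myh7 share was 0.299, 0.71, 0.244, 0.479 and 0.323% in aged lean libraries and 1.04, 1.41, 1.16, 0.628 and 2.6% in aged obese ones. The groups overlapped at lean library 31 and obese library 38. The means were 0.411% ± 0.189 and 1.37% ± 0.743 (SD, n = 5 each). The exact two-sided permutation p was 0.0159, and 0.0635 after adjustment over the 4 chains, where 0.00794 is the smallest p that 5 against 5 allows. Without library 38 the adjusted value was 0.0317, and in every other run with 1 library left out it was 0.0635 to 0.127. Without library 39 the difference shrank from 0.956 to 0.648 percentage points.

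No fast myosin share passed the test. Myh4, the chain of the fastest fibres, held 89.6% ± 2.47 of the adult myosin signal in lean and 88.7% ± 3.24 in obese libraries (exact permutation p = 0.69). Myh2 held 4.08% ± 1.30 and 5.02% ± 2.28 (exact p = 0.571), and Myh1 held 5.91% ± 1.53 and 4.93% ± 0.452 (exact p = 0.206). Of 18 fast fibre genes, 1 rose and 17 did not pass, with a median log2 change of 0.07. The one that rose was Mylk2, the myosin light chain kinase of skeletal muscle, which had 11211 to 15258 in lean and 16680 to 20027 in obese libraries (log2 0.50, SE 0.08, adjusted p = 0.0162). Mylk2 was called with any 1 library left out. Actn3, the fast-fibre alpha-actinin, differed by 0.17 (adjusted p = 0.492). The pooled-spread p of Mylk2 was 0.294.

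Myh3, the embryonic myosin heavy chain, which returns in regenerating fibres, had 88.7, 134, 60.6, 127 and 87.1 in lean and 207, 349, 299, 344 and 333 in obese libraries. It rose 3.13-fold (log2 1.64, SE 0.21, adjusted p = 0.0036), and the groups were well apart. Of 11 tested embryonic myosins and myogenic regulators, Myh3 alone passed. Myod1, a master regulator of myogenesis, had 839 to 2123 in lean and 463 to 780 in obese libraries (log2 -0.98, adjusted p = 0.0689). The embryonic and atrial light chain Myl4, picked after its values were seen, rose from 133 ± 35.3 to 278 ± 60 (log2 1.07, adjusted p = 0.0172, limma). Mss51, a fast-muscle mitochondrial protein gene, rose from 2513 ± 819 to 6535 ± 1608 (SD, n = 5 each, log2 1.40, adjusted p = 0.011, limma) and was the only call among 21 junction and denervation genes. In that list Ncam1, the adhesion molecule that rises in denervated fibres, had 208, 187, 234, 440 and 172 in lean and 324 to 399 in obese libraries. It did not pass (log2 0.60, adjusted p = 0.175, limma), and the groups overlapped through lean library 33. It was called in 1 of 10 runs with 1 library left out, that without library 33 (log2 0.82, adjusted p = 0.00422). In that run the list held 2 calls.

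Lrrc30, a leucine-rich repeat gene, had 3345, 4033, 3659, 3809 and 4627 in lean and 1780, 1619, 1777, 2553 and 2191 in obese libraries. It fell to 0.505 of the lean level (log2 -0.98, SE 0.12, adjusted p = 0.0036). Dtnb, beta-dystrobrevin, fell from 89.7 ± 7.1 to 47 ± 9.95 (log2 -0.94, adjusted p = 0.011, limma), the only call among 18 dystrophin complex genes. Both fell in every obese library relative to every lean one. The ubiquitin ligases of atrophying muscle did not pass: Fbxo32 differed by 0.39 (adjusted p = 0.356) and Trim63 by 0.28 (adjusted p = 0.547). Myh3, Mss51, Lrrc30 and Dtnb were called with any 1 library left out, and Myl4 lost its call without library 36 or 37 (adjusted p up to 0.0517). The pooled-spread p was 0.426 for Myh3, 0.194 for Mss51 and 0.387 for Myl4, while Lrrc30 and Dtnb kept their call.

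Car3, carbonic anhydrase 3, is abundant in slow fibres and in adipocytes. It had 31848, 48442, 33198, 34081 and 35266 in aged lean libraries and 88027, 64881, 76814, 65915 and 88281 in aged obese ones. It rose 2.11-fold (log2 1.07, SE 0.13, adjusted p = 0.0036), was called with any 1 library left out, and kept its call beside a clock score (adjusted p = 0.0243). Car3 was the only call among 15 adipocyte markers. Without it, the summed adipocyte markers ran from 4467 to 8077 in lean and from 4549 to 9342 in obese libraries. Adipoq, adiponectin, had 156 to 425 and 187 to 665 (adjusted p = 0.653), and Lep, leptin, had 53.1 to 238 and 74.1 to 543 (adjusted p = 0.315). The part of adipose tissue in the Car3 difference was not tested.

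Of 32 fatty acid uptake and beta-oxidation genes none passed, by limma. Of these, 31 had a positive log2 change (50.8% of all genes did), 11 had every obese library above every lean one (249 of all genes, 1.86%), and the median was 0.26. Decr1, a dienoyl-CoA reductase, had 1350 to 1971 in lean and 2127 to 3430 in obese libraries (log2 0.51, adjusted p = 0.0884). The mitochondrial thioesterase Acot2 had 307 to 632 and 708 to 876 (log2 0.68, adjusted p = 0.0659), and the cytosolic one, Acot1, had 17.8 to 77.7 and 64.3 to 154 (log2 1.45, adjusted p = 0.0587). The enoyl-CoA isomerase Eci2 differed by 0.37 (adjusted p = 0.0976). Unadjusted, 20 of the 32 had a p under 0.05, against 2059 of all 13367 genes. Without library 32 the list held 2 calls, and without library 30 or 34 it held 1.

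None of 16 tested PPAR targets passed, by limma, with a median of 0.29. At an unadjusted p under 0.05 were 4 of the 16, against 2059 of all 13367 genes. Pdk4, the kinase that holds back glucose oxidation, had 2924 to 10732 in lean and 6883 to 12928 in obese libraries (log2 0.57, adjusted p = 0.361). Ucp3, a mitochondrial carrier, stood at 1773 ± 719 and 1829 ± 178 (adjusted p = 0.825). Cidea, a lipid droplet protein, had 20.2 to 35.3 and 36 to 93.6 (log2 1.01, adjusted p = 0.0984). Outside these lists, and picked after their values were seen, the dienoyl-CoA isomerase Ech1 rose from 2740 ± 500 to 4504 ± 884 (log2 0.72, adjusted p = 0.03, limma) and the acyl-CoA synthetase Acsf2 from 87.2 ± 14.7 to 169 ± 54.4 (log2 0.91, adjusted p = 0.0306, limma). Ech1 lost its call without library 34, 35, 36, 37 or 38 (adjusted p up to 0.0648) and Acsf2 without 30, 34, 35, 36 or 37 (up to 0.0756). Their pooled-spread p was 0.0686 and 0.109.

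Of 24 lipid droplet and lipase genes, 2 rose, 2 fell and 20 did not pass. Ces1d, a carboxylesterase that hydrolyses triglyceride, had 260, 383, 198, 193 and 400 in lean and 670, 671, 502, 552 and 755 in obese libraries (2.28-fold, adjusted p = 0.0162, limma). Gpam, the mitochondrial acyltransferase that starts glycerolipid synthesis, had 2596 to 3154 in lean and 3609 to 5165 in obese libraries (log2 0.60, SE 0.09, adjusted p = 0.0105). Plin3, a droplet coat protein, had 426 to 499 in lean and 244 to 339 in obese libraries (log2 -0.69, SE 0.09, adjusted p = 0.0036). Lpin1, a phosphatidate phosphatase, fell by 0.35 on the log2 scale (adjusted p = 0.0443). None of these 4 genes had overlapping groups. Gpam and Plin3 were called with any 1 library left out, Ces1d lost its call without library 36 (adjusted p = 0.0517), and Lpin1 without library 30, 31, 34, 35, 36, 37, 38 or 39 (up to 0.0991). The pooled-spread p of Lpin1 was 0.105.

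Of 28 genes of glucose transport, glycogen and glycolysis, 1 fell and 27 did not pass, with a median of -0.09. The one was Slc2a4, which encodes the insulin-responsive glucose transporter GLUT4. It had 10046, 11494, 12228, 9942 and 10975 in lean and 8639, 7602, 7776, 9018 and 8690 in obese libraries, without overlap. The obese level was 0.764 of the lean one (log2 -0.39, SE 0.07, adjusted p = 0.0236). Slc2a4 lost its call without library 31, 34, 35, 36 or 37 (adjusted p up to 0.0751). Other members did not pass: the glycogen-targeting phosphatase subunit Ppp1r3c (log2 -0.55, adjusted p = 0.0885) and the phosphorylase kinase subunit Phka1 (log2 -0.39, adjusted p = 0.0871). Pfkfb3, an activator of glycolysis picked after its values were seen, had 2181 to 5141 in lean and 5266 to 10513 in obese libraries (log2 1.13, adjusted p = 0.0365). It lost its call without library 30, 31, 35, 36, 37 or 38 (adjusted p up to 0.105). The pooled-spread p of Pfkfb3 was 0.364, while Slc2a4 kept its call.

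Among 27 insulin signalling genes 1 fell and none rose. Prkcd, protein kinase C delta, had 595, 494, 344, 298 and 405 in lean and 219, 195, 238, 228 and 141 in obese libraries (log2 -1.04, SE 0.18, adjusted p = 0.0195). It lost its call without library 36 (adjusted p = 0.0554). Irs1, the insulin receptor substrate of muscle, differed by -0.35 without overlap of groups (adjusted p = 0.0912). Large rises were also those of Rab15, a small GTPase of vesicle traffic, from 98.8 ± 25.5 to 259 ± 108 (log2 1.35, adjusted p = 0.019, limma), and Depp1, a FoxO target, from 128 ± 38.4 to 274 ± 41 (log2 1.13, adjusted p = 0.011, limma). Rab15 lost its call without library 36 (adjusted p = 0.0517), and Depp1 kept its call in all 10 runs. Among called genes with a mean of at least 50, the largest fall was that of Slc15a5, a member of the peptide transporter family. It had 226, 198, 307, 189 and 352 in lean and 81.3, 69.2, 116, 95.2 and 86.5 in obese libraries (log2 -1.47, SE 0.18, adjusted p = 0.0036), and was called with any 1 library left out. The pooled-spread p of Depp1 was 0.18.

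Of 19 tested clock genes 2 rose, 1 fell and 16 did not pass, where 0.471% of all genes rose and 0.598% fell. Dbp, a transcription factor that is a direct output of the clock, had 908, 447, 479, 986 and 700 in lean and 1877, 1814, 1725, 1881 and 1412 in obese libraries. It rose 2.59-fold (log2 1.37, SE 0.20, adjusted p = 0.00953). Ciart, a repressor within the clock, had 51.7, 20.6, 23.5, 69.4 and 40.4 in lean and 128, 138, 93.9, 118 and 113 in obese libraries (3.09-fold, adjusted p = 0.0174, limma). Nfil3, which represses Dbp targets, had 385 to 568 in lean and 256 to 371 in obese libraries (log2 -0.67, SE 0.12, adjusted p = 0.0217). The opposite-phase genes Dbp and Nfil3 thus moved in opposite directions, and none of the 3 had overlapping groups. Bhlhe40, another repressor, differed by 0.55 (adjusted p = 0.0512). Dbp was called with any 1 library left out, Ciart lost its call without library 36 (adjusted p = 0.0552), and Nfil3 without 35, 36 or 37 (up to 0.063). With the spread pooled over 19 libraries no clock gene was called, at 0.127 for Dbp, 0.194 for Ciart and 0.308 for Nfil3.

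The clock activators bind the E-box CACGTG, and the windows of the 2 rising genes are shown to compare them, from RefSeq GRCm38.p6, on the gene's strand with the E-box in capitals. They lie at chr3:95882229-95882478 (minus strand) for Ciart and chr7:45704997-45705246 (plus strand) for Dbp.
Ciart: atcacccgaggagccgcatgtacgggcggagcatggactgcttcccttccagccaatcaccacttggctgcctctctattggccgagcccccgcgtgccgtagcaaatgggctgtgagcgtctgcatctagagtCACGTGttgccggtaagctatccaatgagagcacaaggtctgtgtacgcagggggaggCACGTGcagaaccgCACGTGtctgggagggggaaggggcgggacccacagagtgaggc
Dbp: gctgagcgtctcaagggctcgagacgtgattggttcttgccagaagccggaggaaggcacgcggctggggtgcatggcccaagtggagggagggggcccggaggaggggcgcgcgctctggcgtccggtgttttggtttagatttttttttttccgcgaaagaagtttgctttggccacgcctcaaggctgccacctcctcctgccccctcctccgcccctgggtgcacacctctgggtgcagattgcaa
The Ciart window holds 3 such boxes and the Dbp window none. Of 16 clock genes with a window 5 held the box, and 6.02% of all 32817 windows did. These are again counts by gene and by window, which are not alike. The letters of these windows say nothing about binding elsewhere in either gene.

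A clock score was formed as the mean log2 level of the activators Clock, Npas2 and Arntl less the mean log2 level of Ciart, Nr1d2, Hlf, Tef, Per3 and Dbp, which peak at the opposite phase. It was -2.303, -0.6994, -1.433, -1.773 and -1.384 in aged lean libraries 30 to 34 and -2.781, -2.549, -1.742, -2.947 and -2.367 in aged obese libraries 35 to 39. The groups overlapped, since lean libraries 30 and 33 lay below obese library 37. The labels give no time of day of collection. With the score as a covariate, 7 genes passed (Ace, Aldh1a2, Bmper, Car3, Clu, Podn and Rnf144a), of which 6 are among the 143. All 143 kept their sign, with a median ratio of 1.10 for the log2 change and of 1.45 for its standard error. Score and diet group move together in these libraries, and Dbp and Ciart are themselves in the score. The part of collection time in the calls was not tested.

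**Figure D2:**
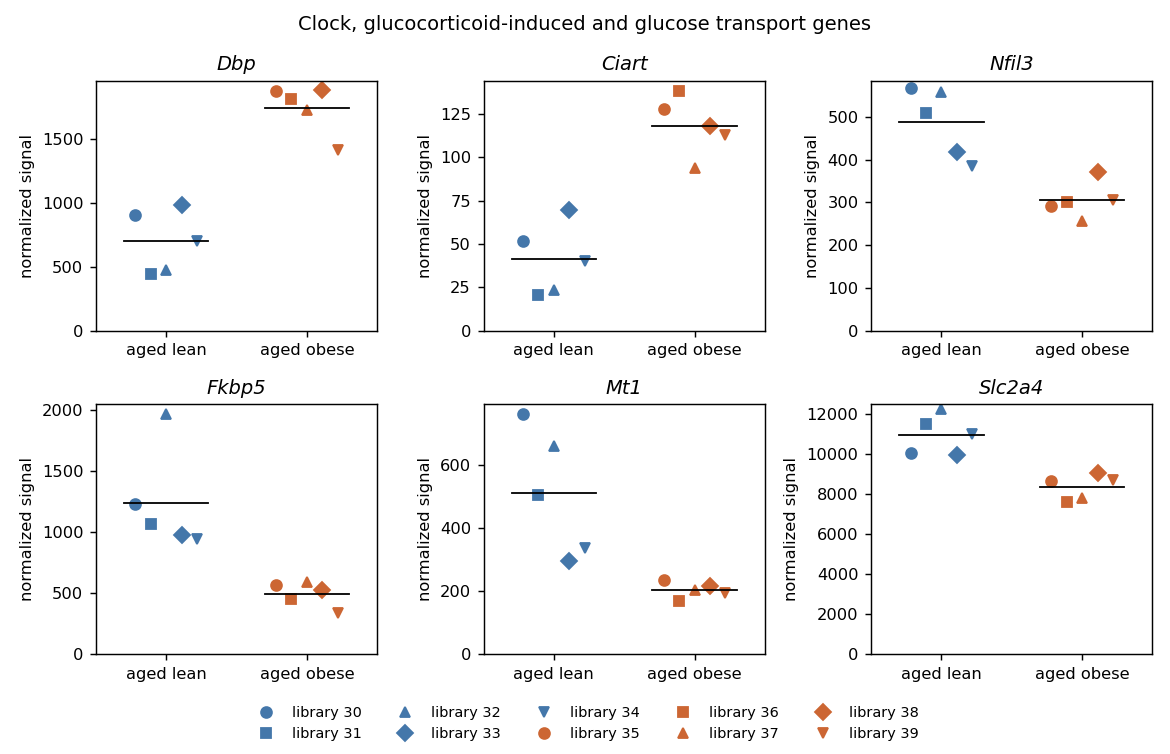
Normalized signal (linear axis from 0) of 3 clock genes, the glucocorticoid-induced genes Fkbp5 and Mt1, and the glucose transporter gene Slc2a4 in each aged library, with blue for aged lean and orange for aged obese. Points are libraries and black lines group means. Dbp and Ciart are higher and the other 4 genes lower in every obese library than in any lean library.

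Of 19 glucocorticoid targets 2 fell and 17 did not pass, where 0.598% of all genes fell. The list had no common direction, with 9 positive and 10 negative log2 changes. Fkbp5, a chaperone of the glucocorticoid receptor that the hormone induces, had 1225, 1064, 1963, 974 and 946 in lean and 566, 453, 591, 523 and 339 in obese libraries. It fell to 0.409 of the lean level (log2 -1.29, SE 0.19, adjusted p = 0.0109) and was called with any 1 library left out. Mt1, a metallothionein induced by glucocorticoids and metals, fell from 513 ± 202 to 203 ± 24.5 (log2 -1.25, adjusted p = 0.0211, limma), and its relative Mt2 had 197 to 805 in lean and 106 to 217 in obese libraries (log2 -1.40, adjusted p = 0.0605). Klf9, also a target, differed by 0.26 in the other direction (adjusted p = 0.0803). Nr3c2, the mineralocorticoid receptor that also binds corticosterone, was picked after its values were seen. It rose from 207 ± 27 to 312 ± 18.7 (SD, n = 5 each, limma, log2 0.60, SE 0.09, adjusted p = 0.0109), and was called with any 1 library left out, while Mt1 lost its call without library 36 or 37 (adjusted p up to 0.063). The pooled-spread p was 0.0538 for Fkbp5, 0.375 for Mt1 and 0.0695 for Nr3c2.

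Of 27 NRF2 targets, genes of the oxidant and xenobiotic response, 1 rose and 5 fell, where 0.471% of all genes rose and 0.598% fell. Mt1, already counted among the glucocorticoid targets, was 1 of the 5. Hmox1, haem oxygenase 1, had 208 to 389 in lean and 145 to 193 in obese libraries (log2 -0.85, adjusted p = 0.0211). Cbr2, a carbonyl reductase, had 800, 702, 627, 706 and 719 in lean and 504, 411, 535, 395 and 307 in obese libraries (log2 -0.74, SE 0.13, adjusted p = 0.0174). The rise was that of Cat, the peroxisomal catalase, from 2253 ± 312 to 3311 ± 477 (log2 0.55, adjusted p = 0.0311, limma). The members thus moved in both directions, and the list median was -0.02. Hmox1 lost its call without library 36 or 37 (adjusted p up to 0.0648), Cbr2 without 36 (0.0518), and Cat without 30, 31, 34, 35, 36, 37 or 39 (up to 0.0839). The pooled-spread p was 0.594 for Hmox1 and 0.0514 for Cat.

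Several matrix genes fell in aged obese muscle. Of 8 fibrillar collagens 2 fell and 6 did not pass (median log2 change -0.64). Of 26 basement membrane and other collagens 2 fell (median -0.06), of 36 glycoproteins and proteoglycans 6 fell (median -0.24), and of 28 crosslinking and remodelling enzymes 1 fell (median -0.21). None in these 4 lists was called upward, and over all genes 0.598% fell and 0.471% rose. Positive but uncalled log2 changes were seen in 1 of the 8 fibrillar collagens and 10 of the 26 other collagens. The same held for 12 of the 36 glycoproteins and proteoglycans and 6 of the 28 enzymes, the largest being 1.61 among the enzymes. Col3a1, a fibrillar collagen of soft tissue, had 4903, 4046, 2163, 2697 and 2591 in lean and 1106, 1378, 1301, 1429 and 1850 in obese libraries. It fell to 0.445 of the lean level (log2 -1.17, SE 0.20, adjusted p = 0.0172) without overlap, with lean libraries 30 and 31 highest. Col5a2, which joins the same fibrils, fell from 511 ± 113 to 302 ± 35.7 (log2 -0.73, adjusted p = 0.0231, limma). The main collagen chains did not pass: Col1a1 had 1499 to 3062 in lean and 1035 to 2363 in obese libraries (log2 -0.77, adjusted p = 0.111), and Col1a2 differed by -0.81 (adjusted p = 0.0523). The number of fibrillar collagens called was 0 without library 36 or 37, and 5 without library 32 or 39.

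Dpt, dermatopontin, which assists collagen fibril assembly, had 811, 866, 703, 786 and 825 in lean and 466, 482, 452, 462 and 643 in obese libraries (log2 -0.68, SE 0.10, adjusted p = 0.00953). Eln, elastin, had 482 to 612 and 326 to 449 (log2 -0.60, adjusted p = 0.0119). Both were called with any 1 library left out. The collagen-binding proteoglycans Lum (log2 -0.60, adjusted p = 0.0235) and Dcn (log2 -0.42, adjusted p = 0.0267) also fell, as did Ecm1 (log2 -0.70, adjusted p = 0.0211) and Fn1, fibronectin, picked after its values were seen (log2 -0.67, adjusted p = 0.0236). Among basement membrane and microfibril genes, Col6a3 fell by 0.56 (adjusted p = 0.0236) and Nid1, nidogen, by 0.40 on the log2 scale (adjusted p = 0.0482). Mmp2, a gelatinase that remodels matrix, had 1130 to 1574 in lean and 809 to 1119 in obese libraries (log2 -0.57, SE 0.10, adjusted p = 0.0179).

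Of these matrix genes, only Dpt and Eln were called in all 10 runs with 1 library left out. Mmp2 lost its call without library 36 (adjusted p = 0.0552), and Col3a1 without 36 or 37 (up to 0.0517). Ecm1 lost it without 34, 36 or 37 (up to 0.0577), Lum without 30, 34, 35 or 37 (up to 0.0629), and Col5a2 without 31, 34, 35, 36, 37 or 38 (up to 0.063). For Col6a3 the libraries were 31, 34, 35, 37 and 38 (up to 0.0718), for Fn1 30, 31, 34, 36 and 37 (up to 0.0781), for Dcn 30, 34, 36, 37 and 38 (up to 0.0812), and for Nid1 30, 31, 34, 35, 36, 37 and 38 (up to 0.126). With the spread pooled over 19 libraries, none in the 4 matrix lists was called. The pooled-spread p was 0.0918 for Dpt, 0.206 for Eln, 0.437 for Col3a1 and 0.335 for Mmp2. It was 0.124 for Dcn, 0.289 for Ecm1, 0.323 for Nid1 and 0.335 for Lum. For Col6a3 it was 0.474, for Col5a2 0.481 and for Fn1 0.571.

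Of 13 markers of fibro-adipogenic progenitors, the interstitial cells that make much of this matrix, 3 fell (Dpt, Dcn and Lum) and none rose. Over all genes 0.598% fell. Of the 13 markers, 12 had a negative log2 change. Their summed signal ran from 35389 to 45733 in lean and from 27317 to 34911 in obese libraries, without overlap. Pdgfra, the receptor that defines these cells, had 591 to 802 in lean and 468 to 549 in obese libraries (log2 -0.40, adjusted p = 0.0543). Aldh1a2, an enzyme that makes retinoic acid, had 409, 253, 283, 218 and 245 in lean and 124, 102, 117, 163 and 124 in obese libraries (log2 -1.13, SE 0.16, adjusted p = 0.00953) and kept its call beside the clock score (adjusted p = 0.0442). It was called with any 1 library left out. S100a4, a calcium-binding protein of fibroblasts and immune cells, fell from 192 ± 60.6 to 90.8 ± 16.6 (log2 -1.03, adjusted p = 0.0311, limma), with groups that met and calls lost without library 30, 31, 34, 35, 36, 37 or 38 (up to 0.0905). The summed tendon markers overlapped, at 3930 to 12188 in lean and 4062 to 9936 in obese libraries. With the pooled spread no progenitor marker was called, and the p was 0.0514 for Aldh1a2 and 0.18 for S100a4.

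Macrophage markers were lower in aged obese libraries without a call. None of 22 passed by limma, while 20 had an unadjusted p under 0.05, against 2059 of all 13367 genes. All 22 markers had a negative log2 change, and their median was -1.01. None was at 0 in all aged libraries. Their summed signal ran from 5087 to 21249 in lean and from 3656 to 6803 in obese libraries, and the highest lean value without library 30 was 13748. Cd68, a lysosomal protein of macrophages, had 1059, 647, 236, 420 and 320 in lean and 255, 116, 164, 213 and 152 in obese libraries (log2 -1.42, SE 0.34, adjusted p = 0.0677). Library 30 was highest, and lean library 32 lay within the obese range. Adgre1, which encodes the F4/80 antigen, had 501, 316, 102, 188 and 204 against 136, 58.4, 96.6, 122 and 78.4 (log2 -1.27, adjusted p = 0.106). Lysozyme, Lyz2, and the adaptor Tyrobp each differed by -1.18 (adjusted p = 0.111 and 0.102). Without library 32, 11 of the 22 passed. Without library 30, none passed, and Cd68 differed by -1.12 (adjusted p = 0.0971) and Adgre1 by -0.99 (adjusted p = 0.176).

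Complement showed the same direction. Of 15 tested members 1 fell and all 15 had a negative log2 change, with a median of -0.81. C3, the central component, had 5679, 3612, 2861, 3726 and 4236 in lean and 2313, 1501, 2047, 2395 and 1649 in obese libraries (log2 -1.01, SE 0.17, adjusted p = 0.0162). It was called with any 1 library left out, and without library 30 the difference was -0.87 (adjusted p = 0.0238). The receptor C5ar1 differed by -0.81 (adjusted p = 0.0726). Without library 32 the list held 6 calls. Serpina3n, an acute-phase protease inhibitor, fell from 358 ± 90.9 to 182 ± 33.9 (log2 -0.95, adjusted p = 0.0217, limma). Serpinb1a, an inhibitor of neutrophil elastase, fell from 197 ± 77.7 to 93.4 ± 13.4 (0.5 of the lean level, adjusted p = 0.0431, limma). Serpina3n lost its call without library 35 or 36 (adjusted p up to 0.063) and Serpinb1a without 31, 33, 35, 36, 37, 38 or 39 (up to 0.114). The protease Ctss (adjusted p = 0.158) and lipocalin Lcn2 (adjusted p = 0.176) were at their highest in lean libraries 30 and 31. The part of macrophage content in the matrix and complement differences was not tested. The pooled-spread p was 0.0992 for C3, 0.469 for Serpina3n and 0.335 for Serpinb1a.

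**Figure D3:**
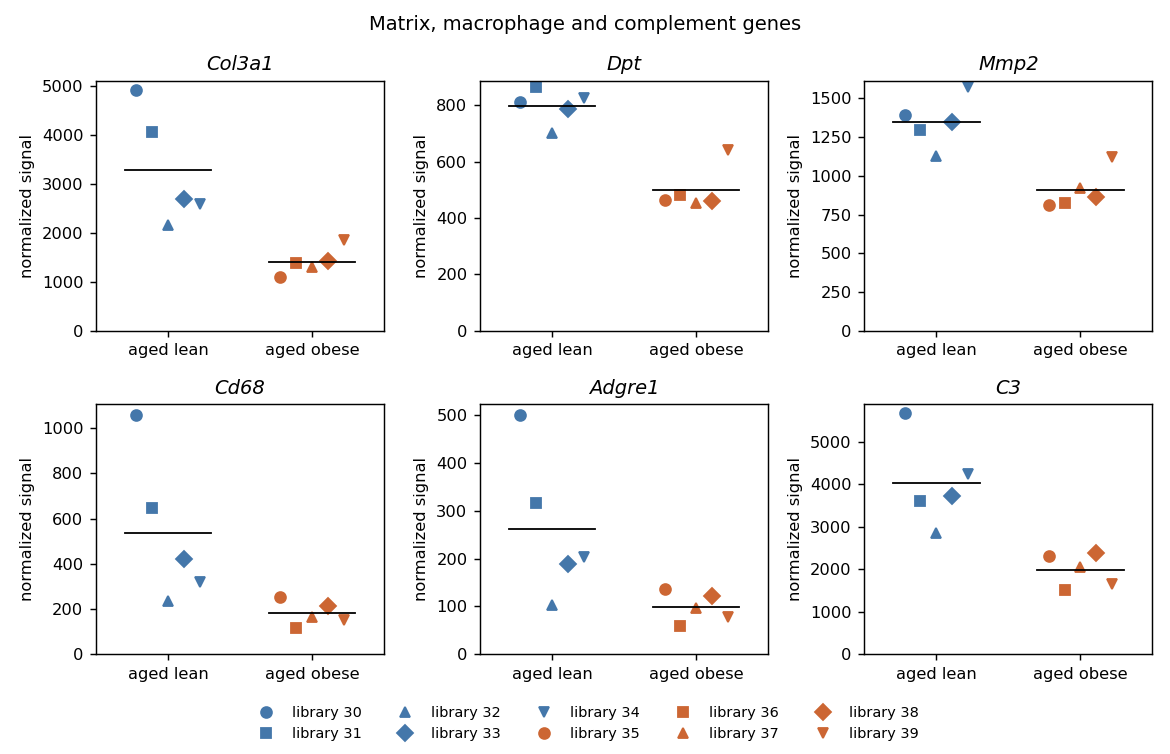
Normalized signal (linear axis from 0) of 3 matrix genes, the macrophage markers Cd68 and Adgre1 and complement C3 in each aged library, with blue for aged lean and orange for aged obese. Points are libraries and black lines group means. Dpt, Mmp2, Col3a1 and C3 have no overlap, while for Cd68 and Adgre1 lean library 32 lies within the obese range and library 30 is highest.

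Endothelial and pericyte markers had no call among 18 by limma, with a median of 0.14. At an unadjusted p under 0.05 were 4 of the 18, against 2059 of all 13367 genes. The summed signal of these markers was 19650 to 24274 in lean and 22851 to 24385 in obese libraries. Angpt1, the ligand that stabilises vessels, had 174, 194, 180, 207 and 217 in lean and 318, 365, 312, 335 and 452 in obese libraries (log2 0.86, SE 0.11, adjusted p = 0.0036). Ednrb, an endothelin receptor, had 316 to 403 and 180 to 232 (log2 -0.78, SE 0.10, adjusted p = 0.0036). Ace, the angiotensin-converting enzyme, had 1490 to 1824 and 1011 to 1181 (log2 -0.60, SE 0.07, adjusted p = 0.0036). These 3 were picked after their values were seen, and all were called with any 1 library left out. Npr3, the clearance receptor of natriuretic peptides, rose from 164 ± 57.2 to 427 ± 190 (log2 1.33, adjusted p = 0.0403, limma), with overlap of groups and a call lost without library 30, 32, 33, 34, 35, 36, 37 or 39 (up to 0.112). Tph1, which makes peripheral serotonin, fell from 85.8 ± 28 to 34.7 ± 9.34 (log2 -1.27, adjusted p = 0.0211, limma) and lost its call without library 36 or 37 (up to 0.063). Lgr6, an R-spondin receptor picked after its values were seen, was low throughout. It had 0.907, 3.92, 4.08, 8.8 and 1.92 in lean and 19.5, 37.6, 23.5, 9.62 and 33.6 in obese libraries (log2 2.47, SE 0.47, adjusted p = 0.0244), and its call was lost without library 34, 35, 36, 37 or 39 (up to 0.0872). The pooled-spread p was 0.173 for Ednrb, 0.06 for Npr3 and 0.0521 for Tph1.

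Large gene groups held no call. None of 38 genes of respiratory complex I (median 0.03), 41 of complexes III to V (0.04), 78 mitochondrial ribosomal proteins (-0.03), 83 cytosolic ribosomal proteins (0.01) or 31 constitutive proteasome subunits (0.05) passed, by limma. Unadjusted, 2, 0, 2, 2 and 0 of them had a p under 0.05, against 2059 of all 13367 genes. The TCA cycle (23 genes), autophagy and lysosome (34), heat shock (24), satellite cell (9) and Schwann cell lists (12) held none either (1, 9, 4, 1 and 1 at an unadjusted p under 0.05). Idh2, a mitochondrial dehydrogenase of the TCA list, had 2296 to 4379 in lean and 4435 to 7413 in obese libraries (log2 0.54, adjusted p = 0.161). Among 25 fatty acid and sterol synthesis genes none passed by limma (10 at an unadjusted p under 0.05), 18 had a negative log2 change, and the median was -0.15. In a simulation with 13367 genes, the test found 58 of 100 true 1.5-fold changes and 79 of 100 true 2-fold changes, so true changes can go uncalled. Its noise took each gene's spread over all 19 libraries and was independent between genes. The aged fit uses the spread of 10 libraries alone, so these rates need not hold for it.

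**Figure D4:**
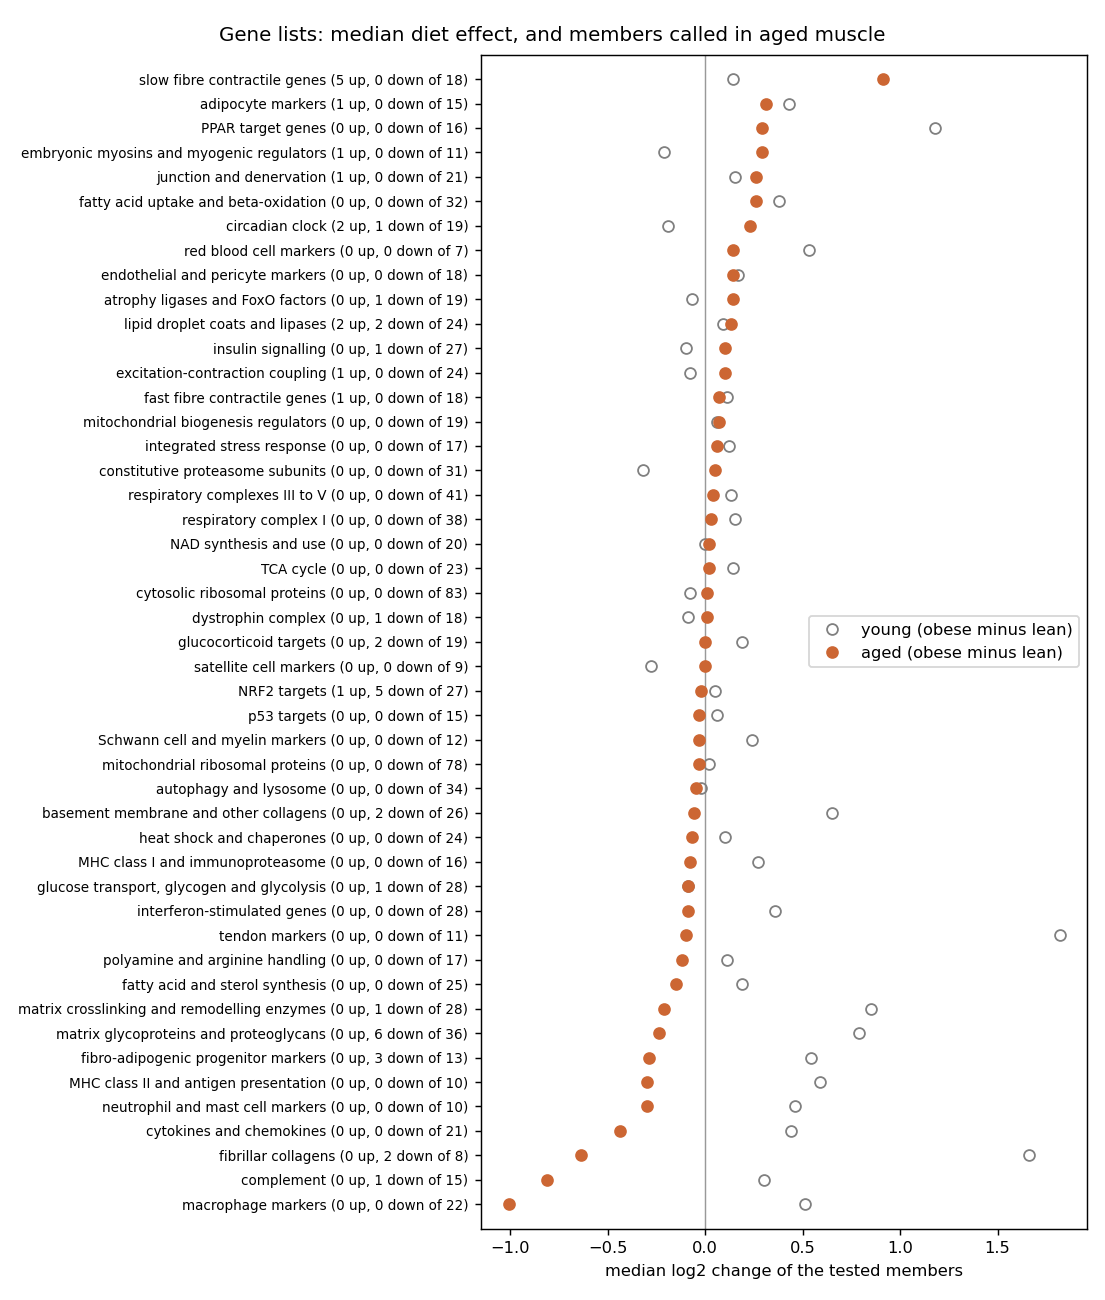
Median log2 change (obese minus lean) of the tested members of each gene list with at least 5 tested members, with filled orange points for aged and open grey points for young muscle. Labels give the members called in aged muscle. Slow fibre genes have the highest aged median (0.91) and macrophage markers the lowest (-1.01), while fibrillar collagens stand at -0.64 in aged and 1.66 in young muscle.

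The diet effect was set against that in young muscle with the interaction of diet and age, fitted on all 19 libraries. It was called for 398 of 13367 genes (2.98%), with the aged effect above the young one for 172 (1.29%) and below it for 226 (1.69%). Of the 63 genes that rose in aged muscle, 45 (71.4%) had the same sign in young muscle and 6 were called by the interaction. Of the 80 that fell, 28 (35.0%) had the same sign in young muscle and 31 were called, against 46.5% of all genes with the same sign. These genes were chosen by the aged libraries, which the interaction shares, so their interaction is not independent of that choice. The number of interaction calls ran from 112 without library 22 to 1724 without library 21, both young lean. With the clock score as a covariate, 5 genes were called. The score was -1.324, -2.936, -2.885 and -3.195 in young lean libraries 21 to 24. In young obese libraries 25 to 29 it was -0.4845, -1.681, -1.217, -2.123 and -1.8. Lean library 21 lay within the young obese range and the other young lean libraries below it. The lowest aged scores were in obese libraries. The part of collection time in the interaction was not tested.

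The matrix genes named here had higher means on the high-fat diet in young muscle and lower ones in aged muscle. Col1a2 went from a mean of 3362 to 15462 in young and from 3066 to 1791 in aged muscle (interaction -3.08, adjusted p = 0.013, limma). Col1a1 went from 3455 to 19355 and from 2514 to 1487 (interaction -3.48, adjusted p = 0.0227, limma). The interaction was also called for Dpt (-1.47, adjusted p = 0.00751), Dcn (-0.90, adjusted p = 0.0113), Mmp2 (-1.50, adjusted p = 0.0227), Nid1 (-1.02, adjusted p = 0.0239), Col6a3 (-1.66, adjusted p = 0.0398), Ecm1 (-1.44, adjusted p = 0.0418) and Col5a2 (-2.08, adjusted p = 0.0474). With each of the 19 libraries left out in turn, the last 3 kept a call in 5, 6 and 5 runs (adjusted p up to 0.0904, 0.09 and 0.112), while Col1a2, Dpt and Dcn kept theirs in all 19. It did not pass for Col3a1 (-2.96, adjusted p = 0.0515), Eln (-0.98, adjusted p = 0.0568), Lum (-1.14, adjusted p = 0.07) or Fn1 (-1.64, adjusted p = 0.108). The tendon proteoglycan Kera (-2.91, adjusted p = 0.024) moved with these genes, and the median young change was 1.82 for the 11 tendon markers against -0.10 in aged muscle. The part of tendon content in the young libraries was not tested.

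The interaction was called for 1 of 18 slow fibre genes, against 2.98% of all genes. Myh7 went from a mean of 6565 to 5275 in young and from 3944 to 13801 in aged muscle (interaction 2.15, adjusted p = 0.02, limma), and this held with any 1 of the 19 libraries left out. For Tnni1 the interaction was 1.69 (adjusted p = 0.056, limma) and for Tnnc1 1.58 (adjusted p = 0.0579). For Tnnt1 it was 1.28 (adjusted p = 0.0985) and for Atp2a2 0.56 (adjusted p = 0.37). Car3 rose in aged muscle while young means were 33143 and 34289 (interaction 1.00, adjusted p = 0.0406, called in 6 of 19 such runs and up to 0.0795). Pdk4 was the reverse, with 4045 and 20278 in young and 7401 and 10330 in aged muscle (interaction -1.71, adjusted p = 0.0252, called in 17 of 19 runs). For Ucp3 it was -1.30 (adjusted p = 0.0749).

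Slc15a5 (interaction -1.95, adjusted p = 0.00491), Prkcd (-1.87, adjusted p = 0.00625), Cbr2 (-1.55, adjusted p = 0.00475) and Aldh1a2 (-1.85, adjusted p = 0.0145) fell in aged muscle and had positive young changes of 0.49, 0.83, 0.81 and 0.71. The interaction of all 4 was called with any 1 of the 19 libraries left out. The aged falls of Prkcd and Cbr2 lost their call without library 36 (adjusted p = 0.0554 and 0.0518, limma). Xpo4, a nuclear transport receptor, rose in aged muscle (log2 0.65, adjusted p = 0.0162) and differed by -0.44 in young (interaction 1.09, adjusted p = 0.00475). Its aged call was lost without library 36 or 37 (adjusted p up to 0.0517). The mRNA export factor Gle1 (0.64) and the potassium channel Kcnc4 (1.12) had interactions with the same adjusted p of 0.00475, with aged changes of 0.14 and 0.37 that did not pass. For Slc2a4 and Lpin1 the young and aged changes were close: -0.39 in aged and -0.39 in young for Slc2a4 (interaction 0.01, adjusted p = 0.979), and -0.35 and -0.37 for Lpin1 (interaction 0.02, adjusted p = 0.948), and a p that misses the threshold does not show equal effects.

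**Figure D5:**
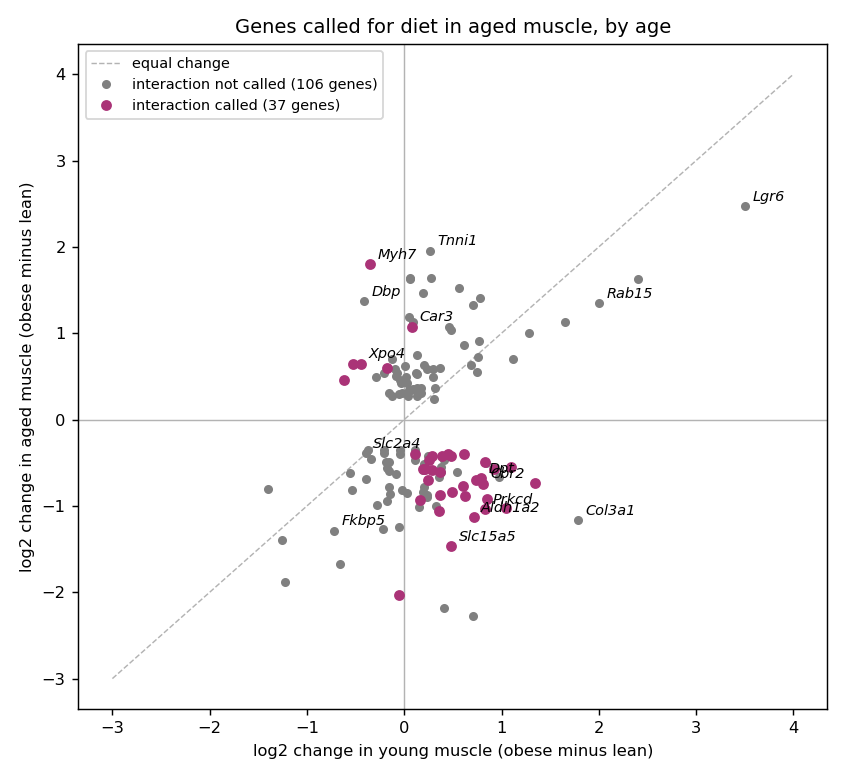
Log2 change with diet in young muscle (x axis) against aged muscle (y axis) for the 143 genes called in aged muscle. Purple points are the 37 genes whose interaction of diet and age was also called and grey points the other 106. Most purple points lie at the lower right, where genes fell in aged muscle and had positive changes in young muscle.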

How the data were processed

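Gene-level RNA abundance was deposited as 1 table with 1 column per library. Its values are signal normalized by the authors per library, per the labels; whole reads were not recovered from it (85.2 to 86.3% of values up to 200 lay within 0.02 of a whole read, where 95% was required), and no count test was run. Per the submitters' processing notes, STAR 2.78a, DESeq2, Partek and the build mm39 were used, in roles that are not told, and the annotation is not given in the sources used here. Genes with a mean under 10 (1340 of 14707) were left out. Values were tested as log2(value + 1), which understates changes of low genes, with limma 3.58.1 in R 4.3.3 (trend, two-sided, Benjamini-Hochberg over 13367 genes). The 10 aged libraries were fitted alone (8 residual, 4.99 prior degrees of freedom), and the interaction on 19 libraries (15 and 4.37). Myosin shares used exact permutation tests in Python 3.11.15 with scipy 1.17.1.

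Genes are named by a rule: the 12 largest rises and 12 largest falls among called genes with a mean of at least 50, the 4 members with the lowest p of each of 49 lists, a short set of muscle genes, and the 6 lowest interaction p-values. It takes 202 genes, of which the text gives part; the rest are not reported here. The 14 genes of the text outside it are Myl2, Myl3, Sln, Myl4, Tead1, Ech1, Acsf2, Pfkfb3, Nr3c2, Fn1, Angpt1, Ednrb, Ace and Lgr6; the genes called beside the clock score are listed only as that result. Members, lists, tests and alternatives were chosen with earlier results of these data known. Alternatives covered the pseudocount, filter, scaling, library weights, variance moderation, a clock score, pooled spread and each library left out. Tested on simulated data, the aged comparison found 58 of 100 true 1.5-fold changes and 79 of 100 true 2-fold changes, with 5 false among 142 calls. For the interaction these were 37 and 77 of 100, with 3 false among 117. The simulated noise took each gene's spread over all 19 libraries and was independent between genes and libraries. These rates therefore need not describe the calls in the real data.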

Additional observations from a re-analysis of the deposited data

Results flagged for a closer look

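Of 204 gene or share groups of 5 aged libraries, 14 held 1 library far from its group, where chance flags about 1 in 20. Library 39, aged obese, was the one in 8 of them. It had low Lpin1 (5659) and a low Myh4 share (83.0%), and high Eci2 (1408), Ech1 (6045), Rab15 (449), Idh2 (7413), Dpt (643) and Myh2 share (8.94%). Aged lean library 30 was low for Acot2 (307) and Decr1 (1350). Aged lean library 31 was high for Car3 (48442) and Lep (238), library 32 was high for Lpin1 (9664), and library 34 was low for Pfkfb3 (2181).

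For 25 genes of the text the diet effect in aged muscle differed from that in young muscle by the interaction (limma, log2 scale, aged minus young). It was positive for Myh7 (2.15), Car3 (1.00), Nr3c2 (0.77), Xpo4 (1.09), Gle1 (0.64) and Kcnc4 (1.12). It was negative for the matrix genes Col1a1 (-3.48), Col1a2 (-3.08), Kera (-2.91), Col5a2 (-2.08), Col6a3 (-1.66), Mmp2 (-1.50), Dpt (-1.47), Ecm1 (-1.44), Nid1 (-1.02) and Dcn (-0.90). It was also negative for Adgre1 (-2.38), S100a4 (-2.08), Slc15a5 (-1.95), Prkcd (-1.87), Aldh1a2 (-1.85), Pdk4 (-1.71), Cbr2 (-1.55), Dtnb (-1.10) and Ace (-0.97). With each of the 19 libraries left out in turn, 12 of the 25 were called in every run. The 25 were picked by their interaction call, so these runs are not independent of that choice. With the clock score as a covariate, Cbr2 (adjusted p = 0.0443) and Xpo4 (adjusted p = 0.0272) were the only ones of these 25 that passed.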

How the results depend on the processing

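The aged count of 143 genes became 43 without a variance trend, 39 with the spread pooled over 19 libraries and 7 with the clock score as a covariate. It ranged from 51 to 227 with 1 library left out, and from 127 to 180 under the other alternatives. All 143 genes kept their sign in every alternative. The interaction count of 398 became 2494 with library weights, 210 without a variance trend and 5 with the clock score, and ranged from 112 to 1724 with 1 library left out. The cause was not tested. Of the 57 called genes of the text, 21 kept their call with any 1 library left out. The sign changed in 4 of 2035 pairs of gene and setting, none for a called gene. The Myh7 share difference ranged from 0.648 to 1.14 percentage points with 1 library left out. The ranges were -0.039 to 1.37 for Myh2, -1.32 to -0.371 for Myh1 and -1.77 to 0.511 for Myh4. No paired analysis was possible because the groups share no library numbers. No alternative varied depth. With the spread pooled over 19 libraries, 38 of the 57 called genes of the text lost their call.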
